A study of Homo sapiens with 8 samples.

Results

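The 8 human genes that encode cyclin-dependent kinase (CDK) inhibitors or carry that name were followed across 4 groups of HCT-116 cells, an established human colon carcinoma line. The genes were CDKN1A, CDKN1B and CDKN1C of the CIP/KIP family, CDKN2A, CDKN2B, CDKN2C and CDKN2D of the INK4 family, and CDKN3. Their probes were taken by gene name alone, as every non-control probe that carries one of these 8 names among the 36337 gene names on the array, which gave 11 probes. RNA was measured on 8 one-colour Agilent arrays, 2 replicates per group.

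The groups were untreated wild-type cells (WT), WT cells given 20 µM NU6102, a CDK inhibitor, for 24 h (WT + NU6102), HCT-116 cells with a disrupted CDK2 gene (CDK2-/-), and R50 cells, a resistant population derived from WT cells and kept in 50 µM NU6102. The CDK2-/- cells came from a commercial supplier, and R50 is a single selected population, so neither group samples more than 1 line. R50 and WT + NU6102 differed in dose and in length of exposure, and a drug effect cannot be told apart from selection in R50 cells. The WT and WT + NU6102 arrays lay on one slide and the CDK2-/- and R50 arrays on another. The effect of the drug on WT cells and the contrast of R50 with CDK2-/- cells were thus measured on a single slide each. For any contrast that joins the slides, the slide cannot be told apart from the group.

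Levels are log2 signals after subtracting each array's 75th percentile, so a level of 0 is the 75th percentile of that array, and a difference of 1 is a doubling. Different probes bind with different strength, so levels are compared between groups for a probe and never between probes. A gene was counted through its brightest tested probe, and a difference was called where its adjusted p (Benjamini-Hochberg, over all 28677 tested probes, in a limma fit) was under 0.05. Of 58717 non-control spots, each array had 32376 to 36206 well above background, and no spot was saturated. Of 11 colon epithelial markers tested, including EPCAM, KRT8 and KRT18, EPCAM was well above background on all 8 arrays, whereas 5 of 7 mesenchymal markers, 1 of 5 blood markers (HBB) and 1 of 3 endothelial markers did not pass the filter for testing. The mesenchymal markers COL1A1 and ACTA2, which passed, were higher than in WT in CDK2-/- and R50 cells and lower with NU6102, and their part in the results below was not tested.

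CDK inhibitors are small proteins that hold CDKs in check. The CIP/KIP proteins p21 (CDKN1A), p27 (CDKN1B) and p57 (CDKN1C) bind cyclin-CDK complexes, chiefly those of CDK2, while the INK4 proteins p16 (CDKN2A), p15 (CDKN2B), p18 (CDKN2C) and p19 (CDKN2D) bind CDK4 and CDK6 and keep the D cyclins away from them. CDKN2A also encodes ARF, which binds MDM2, and CDKN3 encodes a phosphatase that acts on CDK2. Much of the control of p27 is exerted on the protein, by ubiquitin-dependent destruction, which an RNA array does not measure.

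CDK2 itself was checked first. Its level was -0.78 and -0.77 on the WT arrays, -0.46 and -0.43 with NU6102, -1.58 and -1.53 in CDK2-/- cells and -1.11 and -1.10 in R50 cells. CDK2-/- cells thus had the lowest signal, 0.583 of that in WT (log2 fold change -0.78, SE 0.04, adjusted p = 0.000271), and the probe stayed well above background there. Where the probe lies relative to the disrupted part of the gene is not given in the sources used here.

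Each gene was read through 60-base probes, and the probes for p21, p27 and the exon shared by p16 and ARF lie within coding sequence, as judged from general knowledge of these transcripts and not from an annotation file. They are shown because results below for CDKN1A, CDKN1B and CDKN2A rest on them, although CDKN2A was counted through its brighter probe. Positions are those the WT array files give on hg19, and the sequences are those printed on the array, 5′ to 3′.
CDKN1A, chr6:36652178-36652237, plus strand: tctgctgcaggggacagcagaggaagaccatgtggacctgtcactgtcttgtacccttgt
CDKN1B, chr12:12871119-12871178, plus strand: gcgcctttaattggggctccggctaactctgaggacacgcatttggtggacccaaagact
CDKN2A, chr9:21970901-21970960, minus strand: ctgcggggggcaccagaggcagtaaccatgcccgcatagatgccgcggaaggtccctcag

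CDKN1B had another probe downstream, at chr12:12874940-12874999, and CDKN2A a brighter one at chr9:21968039-21968098. The single probes were at chr11:2904903-2904962 for CDKN1C, chr9:22008979-22009038 for CDKN2B, chr1:51439963-51440022 for CDKN2C and chr19:10677226-10677285 for CDKN2D. CDKN3 had one probe at chr14:54866634-54866693 and a brighter one whose 60 bases map to a span of 4252 bases, chr14:54878384-54882635, as a probe across a splice junction would. All 11 probes passed the filter for testing, which kept probes whose signal cleared background on each of the 2 arrays in 1 group or more. CDKN2B passed only through R50 cells.

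**Figure D1:**
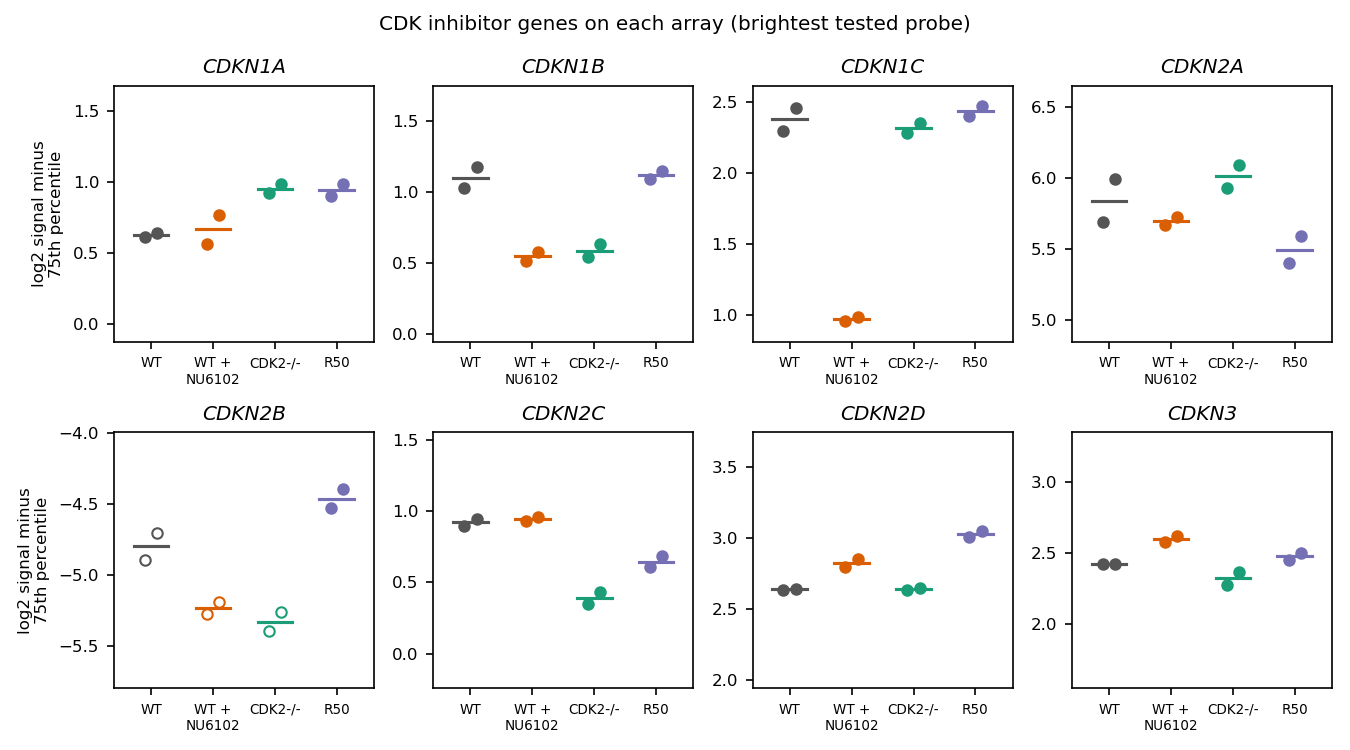
Level of each gene (log2 signal minus the array's 75th percentile, brightest tested probe) in the 4 groups. Points are the 2 arrays of a group, the lower on the left, lines are their means, every panel spans 1.8 log2 units, and open points mark groups in which fewer than 2 arrays were well above background. CDKN1C drops only with NU6102 among the 4 groups, and CDKN1B is low with NU6102 and in CDK2-/- cells.

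CDKN1C showed the largest difference among the 8 genes. Its level was 2.45 and 2.30 in WT, 0.95 and 0.99 with NU6102, 2.28 and 2.35 in CDK2-/- cells and 2.47 and 2.40 in R50 cells. The 2 treated arrays lay far below the other 6, and the WT arrays overlapped with those of both other lines. In RNA from whole cultures, a lower level in every cell and fewer cells that express the gene cannot be told apart. CDKN1C fell 2.65-fold with NU6102 (log2 fold change -1.41, SE 0.07, 95% interval -1.58 to -1.23, adjusted p = 0.000158). Against WT + NU6102 it was 2.76-fold higher in R50 cells (adjusted p = 6.01e-05) and 2.54-fold higher in CDK2-/- cells (adjusted p = 7.37e-05). In R50 cells the difference from WT was 0.06 on the log2 scale (95% interval -0.11 to 0.23, adjusted p = 0.596), and in CDK2-/- cells it was -0.06 (95% interval -0.23 to 0.11, adjusted p = 0.546). The 3 groups without short exposure to the drug therefore could not be put in order.

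Among the 17798 other genes above background on all 8 arrays, the 3 whose profiles lay nearest to that of CDKN1C were ICK, a kinase gene, WBP1 and FLJ37035. Their root mean square distances from it, each probe centred on its own mean, were 0.051, 0.074 and 0.0746 on the log2 scale over 8 arrays. With NU6102 they fell by 1.40, 1.39 and 1.40. This is a description of likeness and carries no test.

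CDKN1B, the p27 gene, was lower with NU6102 and in CDK2-/- cells, and was not called against WT in R50 cells. The probe in coding sequence read 1.18 and 1.03 in WT, 0.52 and 0.58 with NU6102, 0.63 and 0.54 in CDK2-/- cells and 1.09 and 1.15 in R50 cells. The treated and CDK2-/- arrays lay below all WT and R50 arrays, without overlap. CDKN1B was 1.47-fold lower with NU6102 (log2 fold change -0.55, SE 0.07, adjusted p = 0.00209). It was 1.43-fold lower in CDK2-/- cells (log2 fold change -0.51, SE 0.07, adjusted p = 0.00472). In R50 cells the difference from WT was 0.02 (95% interval -0.16 to 0.20, adjusted p = 0.888).

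The other CDKN1B probe, the mean of up to 10 spots per array, gave the same directions with smaller falls. It read 0.52 and 0.51 in WT, 0.33 and 0.24 with NU6102, 0.15 and 0.12 in CDK2-/- cells and 0.80 and 0.68 in R50 cells. Its log2 fold change was -0.23 with NU6102 (adjusted p = 0.0286) and -0.38 in CDK2-/- cells (adjusted p = 0.00786). In R50 cells it lay 0.23 above WT, short of the threshold (adjusted p = 0.0509). Within the slide, both probes were higher in R50 than in CDK2-/- cells, 1.45-fold (adjusted p = 0.00364) and 1.53-fold (adjusted p = 0.00143).

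CDKN1A, the p21 gene, was modestly higher in CDK2-/- and R50 cells. It read 0.61 and 0.64 in WT, 0.57 and 0.77 with NU6102, 0.92 and 0.99 in CDK2-/- cells and 0.90 and 0.99 in R50 cells. The WT and treated arrays overlapped, and all 4 lay below the arrays of both other lines. This split followed the slides, so for CDKN1A the slide cannot be told apart from the group. Between R50 and CDK2-/- cells, on the same slide, the difference was -0.01 (adjusted p = 0.945). The rise was 1.25-fold in CDK2-/- cells (log2 fold change 0.33, SE 0.08, adjusted p = 0.0312) and 1.25-fold in R50 cells (log2 fold change 0.32, SE 0.08, adjusted p = 0.0435). These calls were thin. The first held in 4 of 8 fits that left out 1 array, with values of 0.29 to 0.36, and was lost without either WT or either CDK2-/- array. The second held in 2 of 8, with values of 0.28 to 0.36, and was lost without any WT, CDK2-/- or R50 array. With NU6102 the difference was 0.04 (95% interval -0.16 to 0.25, adjusted p = 0.71).

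CDKN2A was lowest in R50 cells by both of its probes. The probe in the shared exon read 2.34 and 2.42 in WT, 2.19 and 2.26 with NU6102, 2.41 and 2.50 in CDK2-/- cells and 1.88 and 1.87 in R50 cells. Both R50 arrays lay below the other 6. It was 1.42-fold lower in R50 cells than in WT (log2 fold change -0.50, SE 0.06, adjusted p = 0.0045) and 1.5-fold lower than in CDK2-/- cells (log2 fold change -0.58, adjusted p = 0.00135).

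The brighter CDKN2A probe varied more between replicates, at 5.69 and 5.99 in WT, 5.72 and 5.66 with NU6102, 5.93 and 6.09 in CDK2-/- cells and 5.59 and 5.40 in R50 cells. Its difference between R50 and WT was -0.35 (95% interval -0.66 to -0.03) and was not called (adjusted p = 0.107). Against CDK2-/- cells, on the same slide, it was called at -0.52 (adjusted p = 0.0261), although the call was lost without either CDK2-/- array or without R50 replicate 2, at -0.60, -0.44 and -0.42. Neither probe was called with NU6102 or in CDK2-/- cells against WT. Since both probes lie in sequence that p16 and ARF transcripts share, the 2 products cannot be told apart here.

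**Figure D2:**
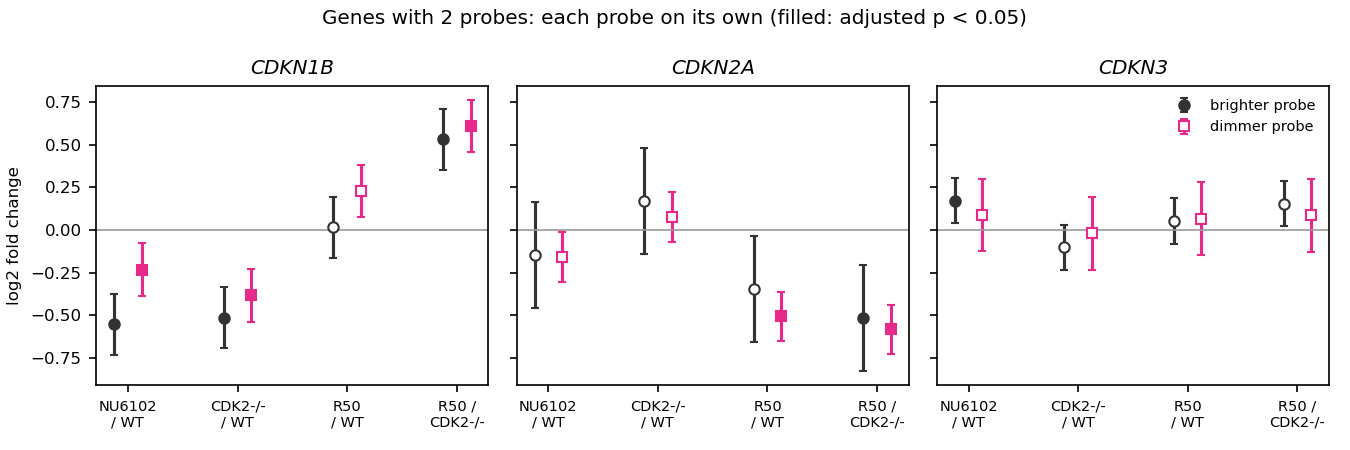
Log2 fold changes of the 3 genes that had 2 probes, for 3 comparisons with WT and for R50 against CDK2-/- cells. Bars are 95% intervals from the limma fit and filled symbols passed an adjusted p of 0.05, and the probes of CDKN1B and CDKN2A point the same way in each called comparison while CDKN3 stays near 0.

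CDKN2B, the p15 gene and the CDKN2A neighbour, was barely detected. Its processed intensity was 24.4 and 27.2 in WT, 19.5 and 19.8 with NU6102, 17.4 and 15.6 in CDK2-/- cells and 32.5 and 30.3 in R50 cells. Only the R50 arrays and WT replicate 2 were well above background. On the processed signal, R50 cells had at least 1.57-fold the CDK2-/- signal and at least 1.43-fold the WT + NU6102 signal. Each bound was set by the dimmest probes still above background. These bounds are given as a description without a test, because the probe entered the fit through its R50 signal. Under normexp background correction the measured log2 differences were 0.23 and 0.20. These are smaller than the bounds, which therefore hold for the processed signal only. The fit also called CDKN2B lower than WT with NU6102 (log2 fold change -0.44, adjusted p = 0.0131) and in CDK2-/- cells (-0.53, adjusted p = 0.01). Under normexp these became -0.05 and -0.07 and were not called. The first was also lost without WT replicate 2 at -0.34 and without WT + NU6102 replicate 1 at -0.40, and the second without CDK2-/- replicate 2 at -0.47.

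CDKN2C, the p18 gene, was lowest in CDK2-/- cells. Its level was 0.90 and 0.95 in WT, 0.94 and 0.96 with NU6102, 0.35 and 0.43 in CDK2-/- cells and 0.68 and 0.61 in R50 cells. WT and treated arrays overlapped, R50 arrays lay below them, and CDK2-/- arrays lay below R50. Both groups of one slide thus lay above both groups of the other. In the contrasts of CDK2-/- and R50 cells with WT, the slide cannot be told apart from the group. CDKN2C was 1.45-fold lower in CDK2-/- cells than in WT (log2 fold change -0.53, SE 0.06, adjusted p = 0.00183). It was 1.21-fold lower in R50 cells (log2 fold change -0.28, SE 0.06, adjusted p = 0.0224), a call lost without any 1 of the WT or R50 arrays, at -0.31 to -0.24. The step from CDK2-/- up to R50 cells was 0.25 (adjusted p = 0.019), lost without CDK2-/- replicate 1 at 0.21, without R50 replicate 1 at 0.22 and in a fit of that slide alone. With NU6102 the difference was 0.03 (95% interval -0.11 to 0.16, adjusted p = 0.746).

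CDKN2D, the p19 gene, was highest in R50 cells. It read 2.65 and 2.64 in WT, 2.80 and 2.85 with NU6102, 2.64 and 2.65 in CDK2-/- cells and 3.05 and 3.01 in R50 cells. WT and CDK2-/- arrays were within 0.02 of one another, treated arrays lay above them and R50 arrays above those. CDKN2D was 1.31-fold higher in R50 cells than in WT (log2 fold change 0.39, SE 0.05, adjusted p = 0.00504) and 1.31-fold higher than in CDK2-/- cells (adjusted p = 0.00249). The rise with NU6102 was 1.14-fold (log2 fold change 0.18, SE 0.05, adjusted p = 0.0234). It was lost under quantile normalization at 0.06, within the slide alone, and without any 1 of the WT or WT + NU6102 arrays, at 0.16 to 0.21.

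CDKN3, the phosphatase gene, had the smallest span of group means among the 8 genes, 0.28 on the log2 scale. Its brighter probe read 2.42 and 2.42 in WT, 2.58 and 2.62 with NU6102, 2.37 and 2.28 in CDK2-/- cells and 2.45 and 2.50 in R50 cells. The treated arrays were the highest and the CDK2-/- arrays the lowest, without overlap. The rise with NU6102 was 1.13-fold (log2 fold change 0.17, adjusted p = 0.0451) and was called in none of 8 fits that left out 1 array, at 0.15 to 0.19, nor under quantile normalization, at 0.04. CDK2-/- cells lay 1.21-fold below WT + NU6102 (adjusted p = 0.00735). The other CDKN3 probe was called in no comparison, with log2 fold changes from WT of -0.02 to 0.09.

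**Figure D3:**
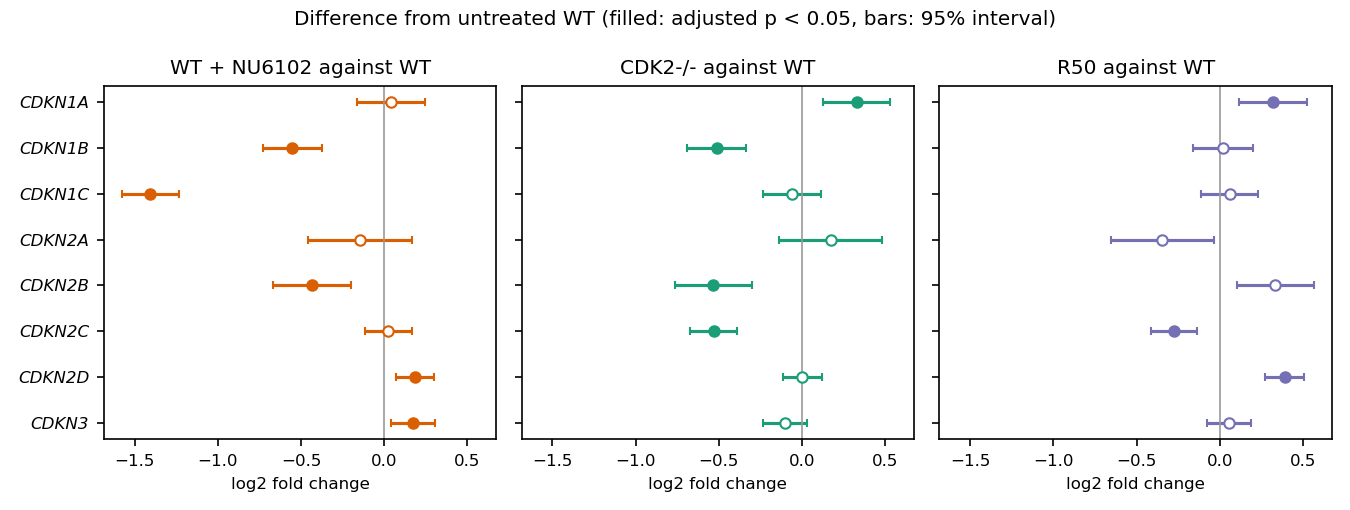
Log2 fold change from untreated WT for the 8 genes under NU6102, in CDK2-/- cells and in R50 cells (brightest tested probe, 2 arrays per group). Bars are 95% intervals and filled points passed an adjusted p of 0.05, and CDKN1C under NU6102, at -1.41, is the only value beyond 1 in size.

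Counts over the family are given beside the share of all probes called in the same comparison. Over the 4 groups together, 1 of 8 genes, CDKN1C, passed the F-test at an adjusted p under 0.001, against 21.1% of all probes. The adjusted p of the others ran from 0.00118 for CDKN2C to 0.0523 for CDKN2A. With NU6102, 5 of 8, or 4 without CDKN2B, were called (CDKN2D and CDKN3 higher, CDKN1B, CDKN1C and CDKN2B lower) where 44.7% of all probes were. In CDK2-/- cells against WT, 4, or 3 without CDKN2B, were called (CDKN1A higher, CDKN1B, CDKN2B and CDKN2C lower) against 31.1%. CDKN2B entered the fit only through R50 cells, so its calls with NU6102 and in CDK2-/- cells are no support for a difference. In R50 cells against WT, 3 were called (CDKN1A and CDKN2D higher, CDKN2C lower) against 22.6%. The median log2 fold change of the 8 genes was -0.06, -0.08 and 0.06 in these comparisons, and that of all genes 0.04, 0.02 and -0.04.

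Between R50 and CDK2-/- cells, 5 of 8 were called (CDKN1B, CDKN2B, CDKN2C and CDKN2D higher in R50, CDKN2A lower) against 34.4% of all probes, or 4 without CDKN2B. R50 cells differed from WT + NU6102 in 6 (CDKN1A, CDKN1B, CDKN1C, CDKN2B and CDKN2D higher, CDKN2C lower) against 51.4%, or 5 without CDKN2B. CDKN2B could be called in these contrasts only because it cleared background in R50 cells, so its calls are no support for a difference. CDK2-/- cells differed from WT + NU6102 in 5 (CDKN1A and CDKN1C higher, CDKN2C, CDKN2D and CDKN3 lower) against 53.2%. Asking also for a log2 fold change of at least 1 left CDKN1C with NU6102 against WT (6.49% of all probes), none in CDK2-/- against WT (4.74%), R50 against WT (2.59%) or R50 against CDK2-/- (5.2%), and CDKN1C in R50 (10.9%) and CDK2-/- cells (11.6%) against WT + NU6102. Comparisons that use the same arrays are not independent of one another.

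The genes of the kinases and cyclins that the inhibitors bind, together with PCNA, were taken as a list of 15, of which 13 were tested. CCNA1 and CCND2 were not well above background on any array. With NU6102, 11 of 13 rose and none fell (median log2 fold change 0.47, all genes 0.04), where 24.2% of all genes rose and 21.1% fell. CDK6, a partner of the D cyclins, rose by 1.37 (adjusted p = 8.7e-05) and CDK4 by 0.32 (adjusted p = 0.0104). Cyclin E genes, whose products activate CDK2, rose by 1.16 for CCNE1 (adjusted p = 0.000168) and 1.37 for CCNE2 (adjusted p = 0.000111). CCND1 rose by 0.57 (adjusted p = 0.0012), CCND3 by 0.84 (adjusted p = 0.000479) and CCNA2 by 0.42 (adjusted p = 0.00412).

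In CDK2-/- cells 3 of 13 rose and 3 fell (median 0.01, all genes 0.02), where 16.3% of all genes rose and 15% fell. CCNE2 was 1.47 higher than in WT (adjusted p = 7.83e-05) and CCNE1 0.72 higher (adjusted p = 0.000829), while CCNA2 fell by 0.26 (adjusted p = 0.032). In R50 cells 2 of 13 rose and 6 fell (median -0.17, all genes -0.04), where 10.3% of all genes rose and 12.9% fell. CDK6 stood 1.61 above WT (adjusted p = 0.000114) in R50 cells and 1.51 above CDK2-/- cells on the same slide (adjusted p = 4.74e-05). CCNE1 and CDK4 fell by 0.33 (adjusted p = 0.0162) and 0.28 (adjusted p = 0.0324) in R50 cells.

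**Figure D4:**
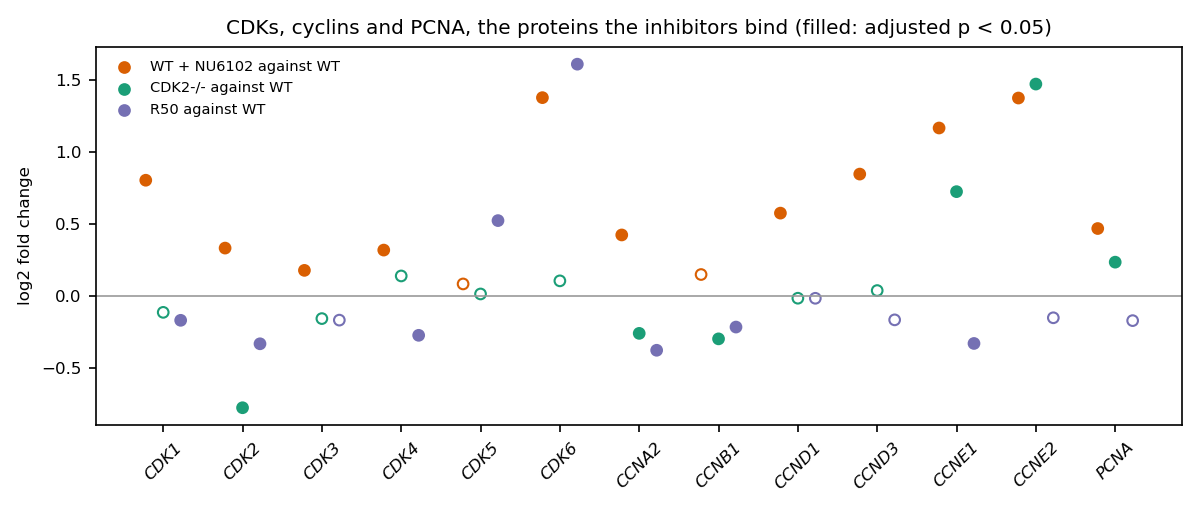
Log2 fold change from WT of the 13 tested genes for CDKs, cyclins and PCNA, under NU6102, in CDK2-/- cells and in R50 cells. Filled points passed an adjusted p of 0.05, and CDK6 is high with NU6102 and in R50 cells while CCNE1 and CCNE2 are high with NU6102 and in CDK2-/- cells.

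Of 14 genes listed as regulators of CIP/KIP protein turnover, 8 rose and 2 fell with NU6102 (median 0.22), where 24.2% of all genes rose and 21.1% fell. SKP2, the ubiquitin ligase subunit that recognises p27, lay 0.11 above WT with NU6102 without a call (adjusted p = 0.103). SKP2 rose by 0.23 in CDK2-/- cells (adjusted p = 0.0135) and fell by 0.36 in R50 cells (adjusted p = 0.00543). Its cofactor CKS1B rose by 0.28 with NU6102 (adjusted p = 0.00888) and fell by 0.19 in CDK2-/- cells (adjusted p = 0.0444) and by 0.30 in R50 cells (adjusted p = 0.0166). In CDK2-/- cells 3 of the 14 rose and 2 fell, where 16.3% of all genes rose and 15% fell, and in R50 cells 1 rose and 3 fell, where 10.3% rose and 12.9% fell.

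Of 31 tested transcription regulators of the inhibitor genes, 10 rose and 11 fell with NU6102, 6 rose and 6 fell in CDK2-/- cells, and 3 rose and 6 fell in R50 cells. The shares of all genes that rose and fell were 24.2% and 21.1%, 16.3% and 15%, and 10.3% and 12.9% in these comparisons.

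The lists that follow the cell cycle gave unlike counts in the 3 comparisons with WT. Of 22 E2F targets of G1 and S phase, 15 rose and 5 fell with NU6102 (median 0.33), 11 rose and 3 fell in CDK2-/- cells (median 0.19), and none rose and 13 fell in R50 cells (median -0.25). Of 25 G2/M genes, 5 rose and 5 fell with NU6102 (median -0.05), none rose and 13 fell in CDK2-/- cells (median -0.18), and 1 rose and 6 fell in R50 cells (median -0.15). Among all genes tested, 24.2% rose and 21.1% fell with NU6102 (median 0.04). These shares were 16.3% and 15% in CDK2-/- cells (median 0.02), and 10.3% and 12.9% in R50 cells (median -0.04). CDKN3 is itself expressed most in cycling cells. The part of cell cycle position in the values of the inhibitor genes was not tested. TGF-beta is a known inducer of CDKN2B. Its list of 12 genes holds targets and also the ligand gene TGFB1 and the receptor genes TGFBR1 and TGFBR2. Of the 10 tested, 2 rose and 5 fell with NU6102, 2 rose and 4 fell in CDK2-/- cells, and none rose and 3 fell in R50 cells. The shares of all genes given above apply to these counts too.

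**Figure D5:**
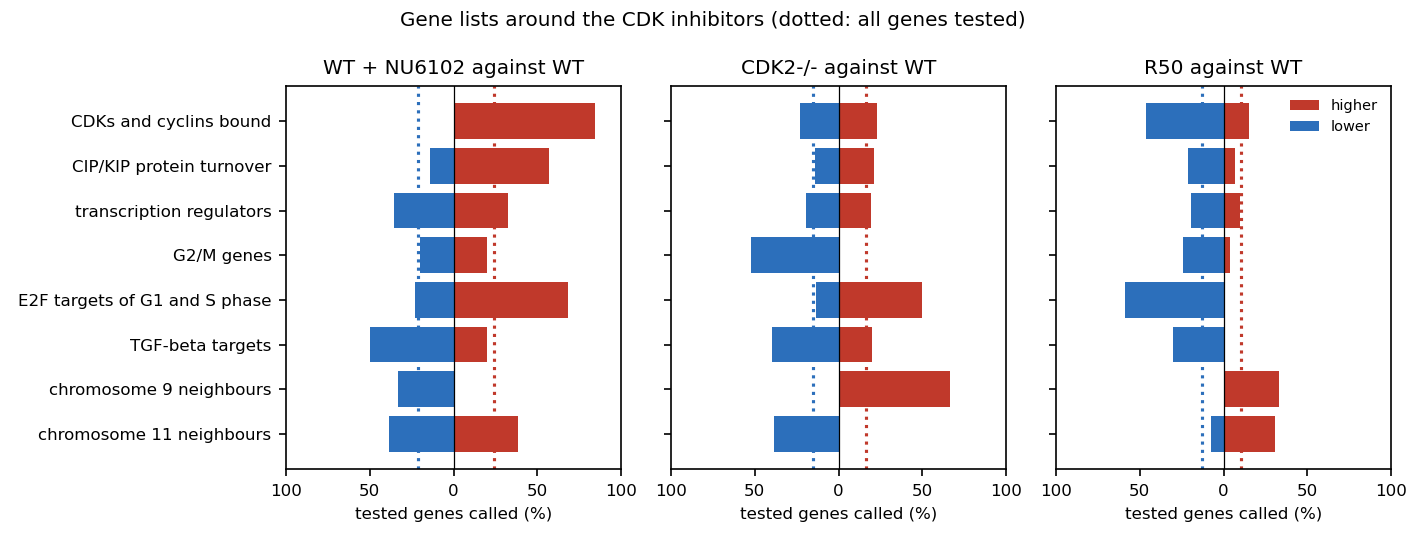
Share of the tested genes of 8 lists that were called higher (right) or lower (left) than WT, in percent, under NU6102, in CDK2-/- cells and in R50 cells. Dotted lines are the shares among all 21595 genes tested, and the list of CDKs, cyclins and PCNA has 11 of 13 genes higher with NU6102.

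Neighbouring genes were examined because CDKN1C lies in an imprinted cluster on chromosome 11 and CDKN2A and CDKN2B lie side by side on chromosome 9. Of 13 tested genes near CDKN1C, 5 rose and 5 fell with NU6102 (median -0.46), where 24.2% of all genes rose and 21.1% fell (median 0.04). Falls among these neighbours included KCNQ1, a potassium channel gene, at -1.70 (adjusted p = 0.000213). Another was SLC22A18, a transporter gene, at -1.25 (adjusted p = 0.00014). PHLDA2, another imprinted gene of the cluster, went the other way at 0.28 (adjusted p = 0.0163). Unlike CDKN1C, KCNQ1 was also called higher than WT in R50 cells (adjusted p = 0.00291). In CDK2-/- cells none of the 13 rose and 5 fell, where 16.3% of all genes rose and 15% fell. In R50 cells 4 rose and 1 fell, where 10.3% of all genes rose and 12.9% fell. KCNQ1OT1, the noncoding RNA that silences the cluster, was well above background only on the CDK2-/- arrays. Its probe entered the fit only through those arrays, and its difference from WT there, 1.01, was not called (adjusted p = 0.163). On chromosome 9, MTAP fell by 0.25 with NU6102 (adjusted p = 0.00648) and rose by 0.51 in CDK2-/- cells (adjusted p = 0.000999) and by 0.33 in R50 cells (adjusted p = 0.0073). The antisense gene CDKN2B-AS1 was not analysed here.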

How the data were processed

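Total RNA of HCT-116 cells was hybridised with Cy3 to Agilent SurePrint G3 arrays of 62976 spots, and the deposited scanner files hold the processed signal intensity that Agilent Feature Extraction 11.5.1.1 gave the authors, after background subtraction. The authors' own table, deposited as log2 values made in GeneSpring GX and close to 0 at each array's median (-0.02 to 0.02), was used as an alternative. Its centring is not given in the sources used here. Genome positions and the build hg19 are given in the WT and WT + NU6102 files only.

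Signals were converted to log2 and shifted by each array's 75th percentile, flagged spots were left out and spots of a probe averaged. Of 50599 probes, 31 without a usable spot on some array were left out, and 28677 whose signal cleared background on each of the 2 arrays in 1 group or more were fitted over all 4 groups with limma 3.58.1 in R 4.3.3 (4 residual degrees of freedom), with 6 contrasts and an F-test at the study's adjusted p of 0.001. Figures were drawn with matplotlib 3.10.9. The fit was tested on simulated data. With 2 arrays per group, p-values measure the spread between these samples, and precision is limited by how few arrays there are. Replicates of a group correlated at 0.994 to 0.996.

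All 8 genes and each probe were named, with the kinases, cyclins, regulators and neighbours given by values in the text and the lists given as counts. For a gene spanning at least 1 log2 unit, the 3 genes most alike were named. Some listed genes are not reported here. The genes and lists were chosen with earlier results of these data known. Alternatives were normexp (offset 50), quantile normalization, no filter or a filter on all 8 arrays, a trended prior, the mean of a gene's probes, fits within a slide, a replicate block, a plain t-test and ANOVA after the study's methods, and leaving out each array.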

Additional observations from a re-analysis of the deposited data

How the results depend on the processing

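The fall of CDKN1C with NU6102 was called in all 18 alternatives that refitted it, from -1.48 to -1.33, and passed the fold minimum below. Leaving that minimum aside, the falls of CDKN1B with NU6102 and in CDK2-/- cells, of CDKN2C in CDK2-/- cells and the rise of CDKN2D in R50 cells were lost only in the methods' t-test, and the differences of CDKN1B and CDKN2D between R50 and CDK2-/- cells were called in each alternative fit. CDKN2B was not tested under the stricter filter, and its difference between R50 and WT + NU6102 was not called with a trended prior. The genes passing the F-test, 1 of 8, numbered 3 with normexp, 0 without a filter on dim probes, 3 with the stricter filter, 4 with a trended prior, 2 with the mean of a gene's probes and 7 at an adjusted p of 0.05. The 5 genes called with NU6102 became 2 under quantile normalization, 3 without a filter, 3 within the slide, 1 in the methods' t-test and 1 at a log2 fold change of at least 1. For CDK2-/- against WT the methods' t-test and the fold minimum each gave 0. For R50 against WT the count became 1 without a filter and 0 in the t-test and with the fold minimum. For R50 against CDK2-/- it became 3 without a filter and 0 with the fold minimum, for R50 against WT + NU6102 it became 1 with the fold minimum, and for CDK2-/- against WT + NU6102 it became 3 without a filter and 1 with the fold minimum. The cause of these shifts was not tested. Leaving out 1 array gave 0 to 1 genes in the F-test (0 without either WT + NU6102 array), 2 to 4 with NU6102, 2 to 4 in CDK2-/- against WT, 1 to 3 in R50 against WT, 3 to 5 in R50 against CDK2-/-, 4 to 6 in R50 against WT + NU6102 and 3 to 5 in CDK2-/- against WT + NU6102.

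Some uncalled differences near 0 changed sign. With normexp, CDKN2D in CDK2-/- cells was -0.0767 and CDKN1B in R50 cells -0.018. Under quantile normalization CDKN2C with NU6102 was -0.026 and CDKN1A in R50 against CDK2-/- cells 0.017, and with the authors' values the latter was 0.00868 and CDKN2D in CDK2-/- cells -0.00908. Leaving out 1 array gave -0.14 to 0.016 for CDKN1C and -0.00503 to 0.00872 for CDKN2D in CDK2-/- against WT, -0.30 to 0.00545 for CDKN2A and -0.0613 to 0.15 for CDKN1A with NU6102, -0.0572 to 0.0927 for CDKN1B and -0.0192 to 0.14 for CDKN1C in R50 against WT, and -0.0504 to 0.0325 for CDKN1A in R50 against CDK2-/- cells. No called difference was reversed in the alternatives run. The correlation of deviations between arrays of the same replicate number was -0.03 to 0.05, so the numbers do not pair the samples, and a fit with the replicate number as a block gave 4 genes with NU6102, CDKN3 being lost, and kept the other counts at 4, 3, 5, 6, 5 and, in the F-test, 1. CDKN2B lay at background on most arrays, so its fold changes are limited by signal.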
